A study of Mus musculus with 2 samples.

Results

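A small number of pancreatic beta cells held transcripts of Cck or Npy, genes of peptide hormones better known from gut and nerve than from the islet. Cells were taken as beta cells when the insulin genes Ins1 and Ins2 made up at least 25% of their unique molecular identifiers (UMIs, counted RNA molecules), when they had at least 10000 UMIs, and when Gcg, Sst and Ppy each stayed under 1%. Among 5808 such cells in 20213 deposited barcodes, 139 had at least 1 UMI of Cck or Npy. They were selected on those values, so the levels of Cck and Npy below are a description. They are set against the 5669 beta cells with neither.

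The study concerns BAF60C, the subunit of BAF chromatin-remodelling complexes that Smarcd3 encodes. Islets of BcBKO mice, which the series describes as ablated in beta cells and ties to Pdx1-cre (Pdx1 is active through the early pancreas and later mainly in beta cells, so its promoter can drive Cre in other islet cells too), were compared with islets of flox/flox mice. Each group was 1 droplet library that counts 3′ ends, from islets of at least 3 pooled mice; age and sex are not in the labels used here. Of the Cck or Npy cells, 115 came from the library labelled BcBKO and 24 from the flox/flox library. The remaining beta cells numbered 2943 in the BcBKO-labelled library and 2726 in the flox/flox library.

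Smarcd3 was barely detected in these cells. It had 3 UMIs in the Cck or Npy cells of the library labelled BcBKO, or 0.577 CPM (a gene's UMIs per 1000000 UMIs), and 1 UMI in those of flox/flox (0.750 CPM), too few to give a direction. In the remaining beta cells it stood at 0.611 CPM (68 UMIs) and 0.370 CPM (44 UMIs). The labels do not say which part of the gene was removed, and a 3′ tag outside that part would not report the loss. A direction between libraries below is therefore one between a library labelled BcBKO and flox/flox. With 1 library per group there is no replicate and no test. Intervals are 95% and cover counting error only, not differences between cells, mice or preparations.

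Cck encodes cholecystokinin, which is released by gut endocrine cells after a meal and by neurons and acts on receptors encoded by Cckar and Cckbr. Npy encodes neuropeptide Y, a transmitter of sympathetic and brain neurons that is also made in immature beta cells of rodents. Beta cells store insulin in the same kind of dense-core granule that carries such peptides, and Cck is known to be induced in mouse beta cells in obesity.

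The upstream sequences of Cck, Npy and Cartpt, the last a peptide gene whose level moved with Cck below, are given because cholecystokinin is a textbook target of factors that bind the cAMP response element. They are the 250 bases before the RefSeq start on GRCm38.p6: chr9:121495695-121495944 on the minus strand for Cck, chr6:49822460-49822709 on the plus strand for Npy and chr13:99900684-99900933 on the minus strand for Cartpt, read 5′ to 3′ with motif matches in capitals.
Cck: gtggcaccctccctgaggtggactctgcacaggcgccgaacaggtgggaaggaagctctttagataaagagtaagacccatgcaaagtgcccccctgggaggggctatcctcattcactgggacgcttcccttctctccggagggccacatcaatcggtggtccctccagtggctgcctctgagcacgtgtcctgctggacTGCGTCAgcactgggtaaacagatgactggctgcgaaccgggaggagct
Npy: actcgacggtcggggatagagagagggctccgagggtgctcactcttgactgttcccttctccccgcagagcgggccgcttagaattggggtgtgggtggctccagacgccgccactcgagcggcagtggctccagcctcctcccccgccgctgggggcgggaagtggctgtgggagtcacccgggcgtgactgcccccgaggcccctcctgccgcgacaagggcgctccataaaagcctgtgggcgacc
Cartpt: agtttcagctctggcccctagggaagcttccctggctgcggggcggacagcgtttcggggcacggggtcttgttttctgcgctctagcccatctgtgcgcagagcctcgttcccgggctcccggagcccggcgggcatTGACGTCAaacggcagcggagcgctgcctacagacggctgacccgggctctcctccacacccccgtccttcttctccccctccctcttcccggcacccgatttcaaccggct
The capitals in Cck are TGCGTCA at -49 from the start, a 7-letter variant of the element that 1.75% of 32851 promoters hold. It overlaps a TGACG core read on the opposite strand, which 17.8% of promoters hold. The capitals in Cartpt are the full TGACGTCA at -112, held by 1.55% of promoters, which contains that core on both strands. The windows at the 2 RefSeq starts each of Pdyn and Serpina7, genes that also stood higher with Cck below, held none of these 3 motifs, though those of Serpina7 held TATAAA. The Npy window held none of these letters on either strand, nor TATAAA, the core of a TATA box, which 12.4% of promoters hold. These are letter matches only. In GENCODE M21, Cck lies at chr9:121489824-121495694, Npy at chr6:49822710-49829507 and Cartpt at chr13:99898489-99901091. The Cartpt window, upstream of the RefSeq start, thus lies within the GENCODE gene, which starts further upstream.

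Cells with Cck or Npy made up 3.76% of beta cells in the library labelled BcBKO (115 of 3058; 3.11% to 4.50%) and 0.873% in flox/flox (24 of 2750; 0.560% to 1.30%), a difference of 2.89 percentage points. Cck was found in 85 BcBKO-labelled cells (2.78%) and 14 flox/flox cells (0.509%). Npy was found in 30 cells (0.981%) and 10 cells (0.364%). Both genes were thus found in a larger share of beta cells of the library labelled BcBKO, and the intervals of the 2 libraries overlapped for Npy only, by a narrow margin (0.663% to 1.40% and 0.175% to 0.668%). No cell in either library held both genes, where the product of the 2 shares would give 0.834 cells in the BcBKO-labelled library and 0.0509 cells in flox/flox.

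The share was largest in the most deeply sequenced cells. Over 5 equal groups of beta cells, from the shallowest to the deepest, it was 2.61%, 2.78%, 2.62%, 3.92% and 6.86% in the library labelled BcBKO, and 0.364%, 0.364%, 0.364%, 1.45% and 1.82% in flox/flox. The Cck or Npy cells were deeper than the rest, with medians of 40411 and 33038 UMIs in the BcBKO-labelled library and of 48948 and 38391.5 UMIs in flox/flox. The flox/flox beta cells were the deeper ones. With every beta cell thinned to 10000 UMIs, for which no cell had to be left out, 60 of 3058 (1.96%) and 8 of 2750 (0.291%) still held Cck or Npy, a difference of 1.67 points.

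**Figure D1:**
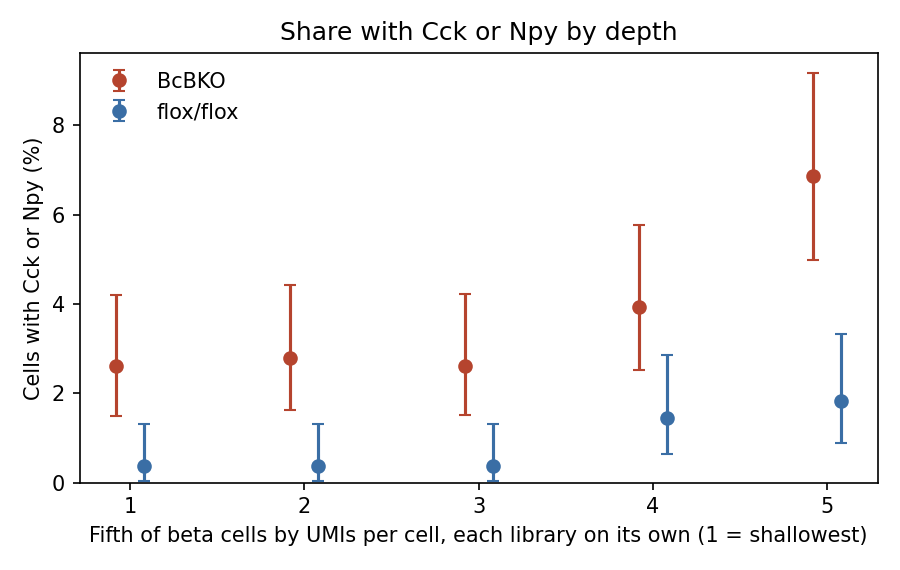
Share of beta cells with at least 1 UMI of Cck or Npy (y axis, %) in 5 equal groups of cells by UMIs per cell (x axis, 1 is the shallowest), each library on its own. Points are shares and bars are 95% exact binomial intervals; the BcBKO-labelled share was the higher one in every group, at 2.61% against 0.364% in the shallowest and 6.86% against 1.82% in the deepest.

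Many of the cells held a trace, and a few held most of the transcripts. Cells just inside the threshold had 1 UMI and beta cells just outside it had 0. Exactly 1 UMI was found in 54 of the 115 BcBKO-labelled cells and 16 of the 24 flox/flox cells, and 5 or more UMIs in 35 (1.14% of beta cells) and 5 (0.182%). In the library labelled BcBKO, 12 cells with 10 or more Cck UMIs carried 54.1% of the 390 Cck UMIs, and the 3 highest had 49, 23 and 21. Npy was more uneven still, with 161 of 346 UMIs (46.5%) in 1 cell, followed by cells with 28 and 26. In flox/flox the highest Cck cells had 12, 11 and 5 of 46 UMIs, and 18 Npy UMIs were counted, 8 of them in 1 cell.

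**Figure D2:**
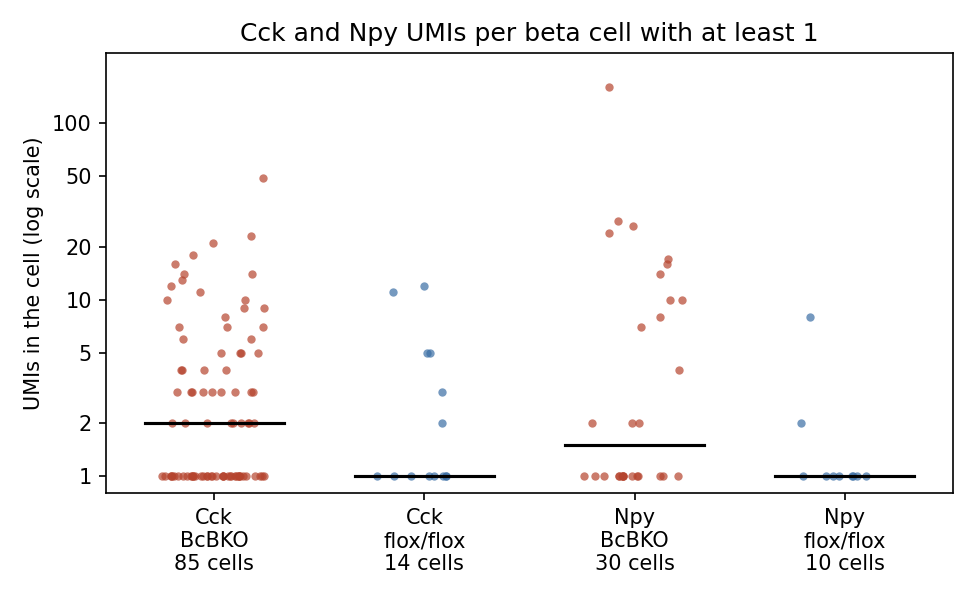
UMIs of Cck or Npy in each beta cell that had at least 1 (y axis, log scale), by gene and library; each point is a cell, points are spread sideways for display, and black lines are medians. Medians lie between 1 and 2, while single BcBKO-labelled cells reach 49 UMIs of Cck and 161 of Npy.

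Free RNA in a droplet library can give a UMI to a cell that does not express the gene. Endothelial-type barcodes, which should lack both genes, had Cck in 1 of 677 in the library labelled BcBKO (0.148%; 0.341 CPM, 0.00864 to 1.90) and 0 of 856 in flox/flox (a count of 0 allows up to 0.715 CPM), at median depths of 3644 and 4020 UMIs. Over all beta cells, at median depths of 33171.5 and 38461.5 UMIs, Cck stood at 3.35 CPM in the BcBKO-labelled library and 0.383 CPM in flox/flox. For Npy the beta cells had 2.97 CPM and 0.150 CPM, and endothelial-type barcodes 0.682 CPM (0.0826 to 2.46) and 0.238 CPM (0.00603 to 1.33). Averaged over all beta cells, the BcBKO-labelled levels lay above the intervals of these barcodes, and the flox/flox levels lay within them. Other classes had Npy at levels as high as beta cells: alpha-type barcodes at 3.20 CPM (1.17 to 6.96, from 6 UMIs) and PP-type at 37.0 CPM (from 3 UMIs) in the library labelled BcBKO, and macrophage-type at 5.93 CPM (from 6 UMIs) and T/NK-type at 13.2 CPM (from 2 UMIs) in flox/flox. Carried over to the UMIs of all beta cells, the endothelial-type level of Cck would give 39.7 UMIs (1.01 to 221) in the library labelled BcBKO, where 39 beta cells had exactly 1 Cck UMI, and that of Npy would give 79.4 (9.62 to 287), where 15 had 1 Npy UMI. That scaling takes free RNA to grow with the UMIs of a barcode, which was not tested. It rests on 1 Cck and 2 Npy UMIs. By barcode in the library labelled BcBKO, Cck was in 0.148% of endothelial-type barcodes and 2.78% of beta cells, and Npy in 0.295% and 0.981%. Single UMIs in either library are not read here as expression, and their source was not tested. The cells with 1 UMI are kept in the sets because the selection includes them, and the results are also given by the number of UMIs.

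Mural-type barcodes (pericytes and smooth muscle) carried Cck as well, in 5 of 109 in the library labelled BcBKO (28.9 CPM) and 8 of 114 in flox/flox (19.9 CPM). Their markers lay in a few of the Cck or Npy cells, the highest at 3143 CPM in the library labelled BcBKO and 1341 CPM in flox/flox: the 8 mural markers summed to 27.5 CPM there against 18.9 CPM in the remaining beta cells in the BcBKO-labelled library, and to 51.8 against 20.7 CPM in flox/flox, with a median of 0 per cell in all 4 sets, Dcn at 0 in both sets with Cck or Npy and Col1a1 also at 0 in that of flox/flox. Rgs5, a pericyte gene, had 91 of its 102 BcBKO-labelled UMIs in 3 cells and 47 of its 51 flox/flox UMIs in 1 cell with a single Cck UMI. In the library labelled BcBKO it stood at 11.7 CPM without Cck or Npy, 17.9 CPM with 1 Cck UMI, 28.7 CPM with 2 to 4 and 1.99 CPM (2 UMIs) with 5 or more, and at 60.3 CPM with 1 Npy UMI and 3.56 CPM with 5 or more. Macrophage markers summed to 151 against 68.8 CPM and to 42.0 against 48.8 CPM, with no marker at 0 in the BcBKO-labelled cells and Cd68, Adgre1 and Tyrobp at 0 in flox/flox. Endothelial markers summed to 99.3 against 70.3 CPM and to 78.8 against 73.5 CPM, all 8 with UMIs. Markers of delta cells summed to 617 against 297 CPM and to 67.5 against 137 CPM, and of PP cells to 1072 against 659 CPM and to 199 against 395 CPM. The part of these cells in the results was not tested. Cells that held 3 or more such markers, or 100 or more UMIs of another islet hormone, were 26 of the 115 BcBKO-labelled cells with Cck or Npy (22.6%, 15.3% to 31.3%) against 10.4% of the remaining beta cells, and 4 of 24 (16.7%, 4.74% to 37.4%) against 9.83% in flox/flox. In the library labelled BcBKO they were 36.7% of the Npy cells and 17.6% of the Cck cells. Without all such beta cells the shares with Cck or Npy were 3.26% and 0.807%.

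Some cells outside the beta definition also held 5 or more UMIs. In the library labelled BcBKO these were 4 barcodes with Cck and 8 with Npy, and in flox/flox 1 with Npy. The highest Cck barcode had 34 UMIs with insulin genes at 8.80% and 124 UMIs of Chgb, the granule protein chromogranin B. Another Cck barcode, with 11 UMIs, had Gcg at 11.2%. Among the Npy barcodes 1 had Ppy at 12.7%, 2 had Sst at 19.7% and 11.8%, and 1 with 36 Npy UMIs had Gcg at 4.92%. Strong Cck or Npy was therefore not restricted to cells within the beta definition. The 2 libraries shared 23 barcode sequences, of which 2 were beta cells in both and 0 held Cck or Npy in either.

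Other genes of beta cells were present, more of them below than above the remaining beta cells. Insulin genes took a median of 60.1% of UMIs in the BcBKO-labelled cells with Cck or Npy and 62.5% in those without, and 62.7% and 64.3% in flox/flox. Ucn3, a granule peptide of mature mouse beta cells, stood at 280 against 251 CPM in the library labelled BcBKO and 274 against 243 CPM in flox/flox. Nkx6-1, a factor that maintains the beta cell, stood at 137 against 138 CPM and 138 against 139 CPM, and Pdx1 at 61.6 against 63.3 CPM and 47.3 against 47.1 CPM. Of 28 genes of beta-cell identity and maturity, 24 reached the minimum level of 5 CPM with or without Cck or Npy in each library, and of these 5 were above (20.8%) and 11 below (45.8%) the remaining beta cells in both libraries, where over all 7617 genes at that level 27.1% were above and 24.9% below. The lowest was Trpm5, a calcium-activated cation channel, at 54.7 against 74.5 CPM and 68.3 against 86.8 CPM. Slc2a2, the glucose transporter GLUT2, stood at 148 against 184 CPM and 213 against 243 CPM. Both Trpm5 and Slc2a2 were thus lower in cells with Cck or Npy, by less than 1.5-fold.

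Insulin itself shifted slightly between its genes in the library labelled BcBKO. Cells with Cck had 213108 CPM of Ins1 and 385820 CPM of Ins2, against 188787 and 432540 CPM in cells with neither Cck nor Npy. Cells with Npy lay between them, at 205420 and 406683 CPM. Ins1 was a median of 33.4% of a cell's insulin UMIs in Cck cells, 32.3% in Npy cells and 29.7% in the others. The upper quartiles were 44.1%, 36.2% and 32.3%. The flox/flox medians were 32.5% in Cck cells, 30.7% in Npy cells and 30.6% in the others. Iapp, the co-stored amylin, stood in cells with Cck or Npy at 71034 against 59558 CPM in the library labelled BcBKO and 61755 against 55907 CPM in flox/flox.

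Across 7617 genes at the minimum level, none was past 2-fold higher in Cck or Npy cells than in the remaining beta cells in both libraries (0 of 7617, 0%), and 4 were past 2-fold lower (0.0525%). The 4 are the hemoglobins Hbb-bs, Hbb-bt, Hba-a1 and Hba-a2, transcripts of red cells: Hbb-bs had 9.62 against 111 CPM in the library labelled BcBKO and 12.01 against 57.4 CPM in flox/flox. In the remaining beta cells 8 of 2943 BcBKO-labelled cells held 10711 of the 12327 Hbb-bs UMIs, and 4 of 2726 flox/flox cells held 5876 of 6821. The hemoglobin difference thus lies in a few cells without Cck or Npy. With the cells weighted to equal depth, the flox/flox log2 ratio of Hbb-bs, -2.17, was -0.67. In the library labelled BcBKO it was -3.40 and, so weighted, -3.31. At 1.5-fold, 14 genes (0.184%) were higher and 11 (0.144%) lower in both. In the BcBKO-labelled library alone 8 genes were past 2-fold in each direction (0.105% each). The higher ones were Cartpt, Pdyn, Serpina7, Gpx3, Sst, the chemokine gene Ccl4 and the macrophage complement genes C1qa and C1qb, and the lower ones the 4 hemoglobins, the immunoglobulin genes Igha and Igkc, Pgf and Wdr73. Leaving out the gene's UMIs in the cell with most of them, 4 of the higher ones fell short of 2-fold. The log2 ratio was then 0.77 for Sst, 0.68 for Serpina7, 0.17 for C1qb and -0.32 for Ccl4. Here and below, a ratio without a cell keeps that cell's other UMIs in the total, which makes it slightly low. In flox/flox, with 24 cells, 37 genes were higher (0.486%) and 117 lower (1.54%).

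**Figure D3:**
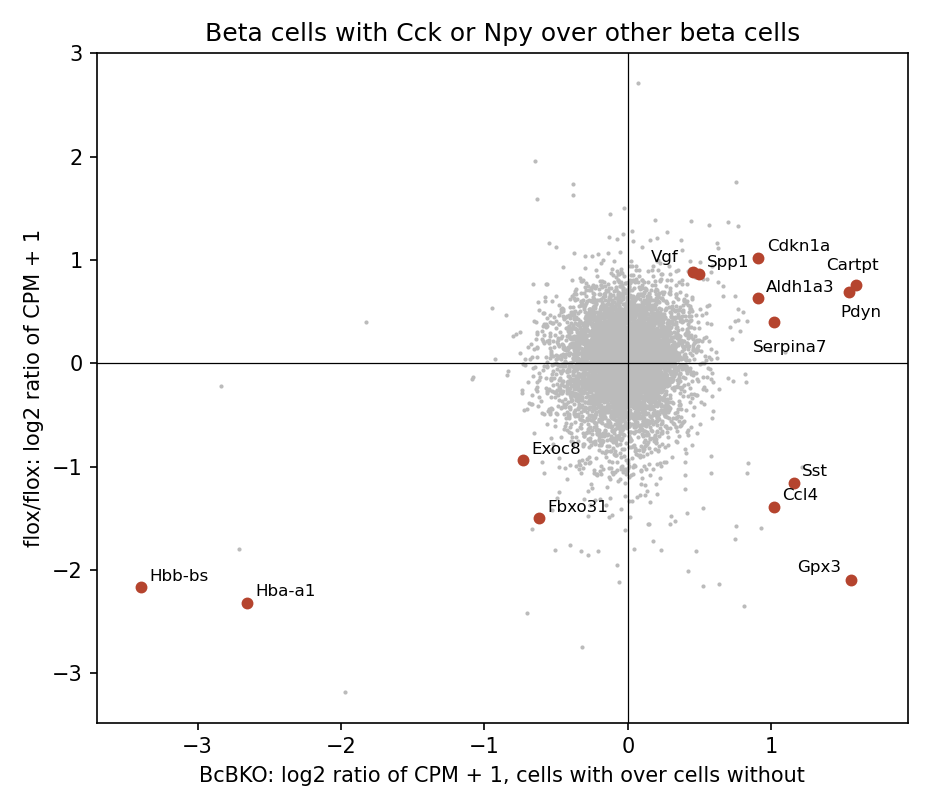
log2 ratio of summed CPM plus 1 in beta cells with Cck or Npy over beta cells without, in the library labelled BcBKO (x axis) and flox/flox (y axis), for 7617 genes; Cck and Npy are not shown, and named genes are in red. Pdyn, Cartpt, Serpina7, Cdkn1a and Aldh1a3 are above 0 on both axes, hemoglobins are below on both, and Sst, Ccl4 and Gpx3 lie on opposite sides.

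The genes highest in both libraries included other peptides. A gene reached the minimum when either set of a library did, so that 818 of the 7617 genes passed through 1 set only in at least 1 library, among them 5 of the 12 highest (Cartpt, Trp53cor1, Lrrc61, Ovol2 and Gsto2) and 7 of the 12 lowest, whose direction the minimum favours. Pdyn, the precursor of the opioid peptide dynorphin, stood at 242 CPM in the BcBKO-labelled cells with Cck or Npy and at 82.4 CPM in the remaining beta cells, a log2 ratio of 1.54 (1.47 to 1.64). In flox/flox it stood at 60.0 and 36.8 CPM, a log2 ratio of 0.69 (0.37 to 1.02), but 34 of its 80 UMIs came from 1 cell, without which the log2 ratio was -0.09. Cartpt, the precursor of the CART peptide that islet cells and neurons secrete, stood at 34.5 against 10.8 CPM in the library labelled BcBKO (log2 ratio 1.59, 1.44 to 1.90) and at 5.25 against 2.68 CPM in flox/flox (0.76, -0.36 to 2.03, from 7 UMIs; -0.18 without 1 cell). After thinning each cell to 10000 UMIs, Pdyn was found in 59.1% of BcBKO-labelled cells with Cck or Npy and 33.7% of those without, and in 20.8% and 18.0% in flox/flox. For Cartpt the thinned shares were 23.5% and 8.09%, and 4.17% and 2.16%. The Pdyn and Cartpt differences were thus seen over many cells in the BcBKO-labelled library and rested on a few in flox/flox.

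Serpina7 encodes a circulating carrier of thyroid hormone. It stood at 57.5 against 27.9 CPM in the library labelled BcBKO (log2 ratio 1.02, 0.87 to 1.22; 0.68 without the cell that held 63 of its 299 UMIs) and at 19.5 against 14.6 CPM in flox/flox (0.40, -0.20 to 0.98; -0.35 without the cell that held 11 of its 26 UMIs). Aldh1a3, a retinaldehyde dehydrogenase that marks dedifferentiating beta cells, stood at 32.7 against 17.0 CPM (0.91, 0.71 to 1.17) and 21.0 against 13.2 CPM (0.63, 0.07 to 1.20). It remained higher without its top cell, at 0.81 in the BcBKO-labelled library and 0.24 in flox/flox. Cdkn1a, the p53-induced inhibitor of the cell cycle p21, stood at 77.2 against 40.6 CPM (0.91, 0.78 to 1.07) and 72.0 against 34.9 CPM (1.02, 0.74 to 1.34). Another cell class held Cdkn1a at 16.7 and 36.2 times the beta-cell level in the BcBKO-labelled and flox/flox libraries, so it was not ranked among the highest genes. The part of other cells in its level was not tested. In flox/flox 50 of its 96 UMIs came from 1 cell. Without those 50 UMIs, and with the cell's other UMIs kept in the total, the log2 ratio was -0.015, which gives no direction. Trp53cor1, a noncoding RNA transcribed beside Cdkn1a and also induced by p53, stood at 6.54 against 3.77 CPM and 5.25 against 2.73 CPM, the last from 7 UMIs.

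The others among the 12 highest by the smaller of their log2 ratios in the 2 libraries were Vgf, Spp1, Ovol2, Gsto2, Lrrc61, Vps8, Rnf150 and Rhd, with BcBKO-labelled log2 ratios from 0.45 for Vgf to 0.57 for Lrrc61. Vgf, a granule peptide precursor, stood at 16.9 against 12.1 CPM in the library labelled BcBKO and 13.5 against 6.87 CPM in flox/flox. Spp1, the secreted protein osteopontin, stood at 86.8 against 61.3 CPM and 107 against 57.9 CPM, with 160 of 451 BcBKO-labelled UMIs in 1 cell and a log2 ratio of -0.13 without it. The 12 lowest were genes of low level, under 20 CPM in every set. They were chosen without genes, such as the hemoglobins, that another cell class holds at over 5 times the beta-cell level. Exoc8, a subunit of the exocyst that tethers vesicles, stood at 3.08 against 5.77 CPM and 2.25 against 5.23 CPM, the last from 3 UMIs. Opa3, a mitochondrial protein, stood at 5.77 against 9.66 CPM and 5.25 against 8.98 CPM. Setd1b, a histone methyltransferase, stood at 12.5 against 18.9 CPM and 12.01 against 16.9 CPM. Fbxo31, Tmem135, Zfp444, Dzip3, Cipc, Zfp787, Ddi2, Ino80e and Ccdc189 completed them, with BcBKO-labelled log2 ratios from -0.62 to -0.49.

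No cell held both Cck and Npy, where the product of their shares would give 0.834 cells in the BcBKO-labelled library and 0.0509 in flox/flox. Among BcBKO-labelled cells, the companion genes stood higher with 5 or more Cck UMIs than with 5 or more Npy UMIs. At 1 UMI not all of them did. In the library labelled BcBKO, Pdyn stood at 82.4 CPM in beta cells with neither gene, 118 CPM in 39 cells with 1 Cck UMI, 386 CPM in 22 cells with 2 to 4, and 425 CPM in 24 cells with 5 or more. In the group with 2 to 4 UMIs, 206 of 403 Pdyn UMIs came from 1 cell. Over the same steps Cartpt stood at 10.8, 18.4, 51.7 and 66.6 CPM, and Cdkn1a at 40.6, 60.6, 102 and 120 CPM. Aldh1a3 stood at 17.0, 27.6, 40.2 and 49.7 CPM. The summed level of each of these 4 genes was thus higher at each step of Cck. From 2 to 4 UMIs to 5 or more, the intervals overlapped for all 4. The share of cells with the gene went from 68.2% to 58.3% for Cartpt and from 63.6% to 54.2% for Aldh1a3 at that step. It went from 77.3% to 87.5% for Pdyn and from 81.8% to 83.3% for Cdkn1a.

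Serpina7 stood at 27.9, 35.7, 41.1 and 131 CPM, with 63 of the 132 UMIs of the last group in 1 cell. Gc, the vitamin D binding protein and an alpha-cell gene also seen in immature beta cells, stood at 70.0, 72.5, 110 and 140 CPM. Dapl1 stood at 181, 220, 314 and 548 CPM, and Chgb at 450, 391, 501 and 891 CPM. Mt3, a metallothionein, stood at 10.4, 18.4, 25.8 and 33.8 CPM. Ins2 stood at 432540, 405610, 368188 and 367798 CPM. Gast, the gastrin gene of the same peptide family as Cck, was chosen for mention after its values were seen: it had 7 UMIs (6.96 CPM, in 5 of 24 cells) in cells with 5 or more Cck UMIs, and 1.33 CPM in BcBKO-labelled cells with neither gene. With 5 or more Cck UMIs, Chgb was thus higher and Ins2 lower than in cells with neither gene. At 1 UMI both were lower, and at the last step Ins2 changed little.

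Cells with many Npy UMIs did not show the same levels. In 11 BcBKO-labelled cells with 5 or more Npy UMIs, Pdyn stood at 89.0 CPM, Cdkn1a at 37.4 CPM, Aldh1a3 at 10.7 CPM (3.92 to 23.2) and Cartpt at 12.5 CPM, against 82.4, 40.6, 17.0 and 10.8 CPM in cells with neither gene. Dapl1 stood above them at 278 CPM (236 to 325, with 70 of 156 UMIs in 1 cell) against 181 CPM, and Chgb below at 320 CPM (275 to 371) against 450 CPM. Gc stood at 24.9 CPM (13.6 to 41.8), below the 70.0 CPM of cells with neither. Serpina7 stood at 71.2 CPM there, with 31 of 40 UMIs in 1 cell. In the 15 cells with 1 Npy UMI, Pdyn stood at 250 CPM, with 61 of 145 UMIs in 1 cell. Cartpt stood at 20.7 CPM in them, Cdkn1a at 58.6, Aldh1a3 at 27.6 and Serpina7 at 24.1 CPM. With 1 Cck UMI, Pdyn, Cartpt, Cdkn1a, Aldh1a3 and Serpina7 stood at 118, 18.4, 60.6, 27.6 and 35.7 CPM. Over all 30 Npy cells these genes stood at 159, 18.5, 47.1, 20.8 and 44.7 CPM. In cells with neither gene they stood at 82.4, 10.8, 40.6, 17.0 and 27.9 CPM. Gc stood at 43.2 CPM over all Npy cells, below the 70.0 CPM. The difference between the Cck and Npy cells was not tested, since all come from 1 library.

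**Figure D4:**
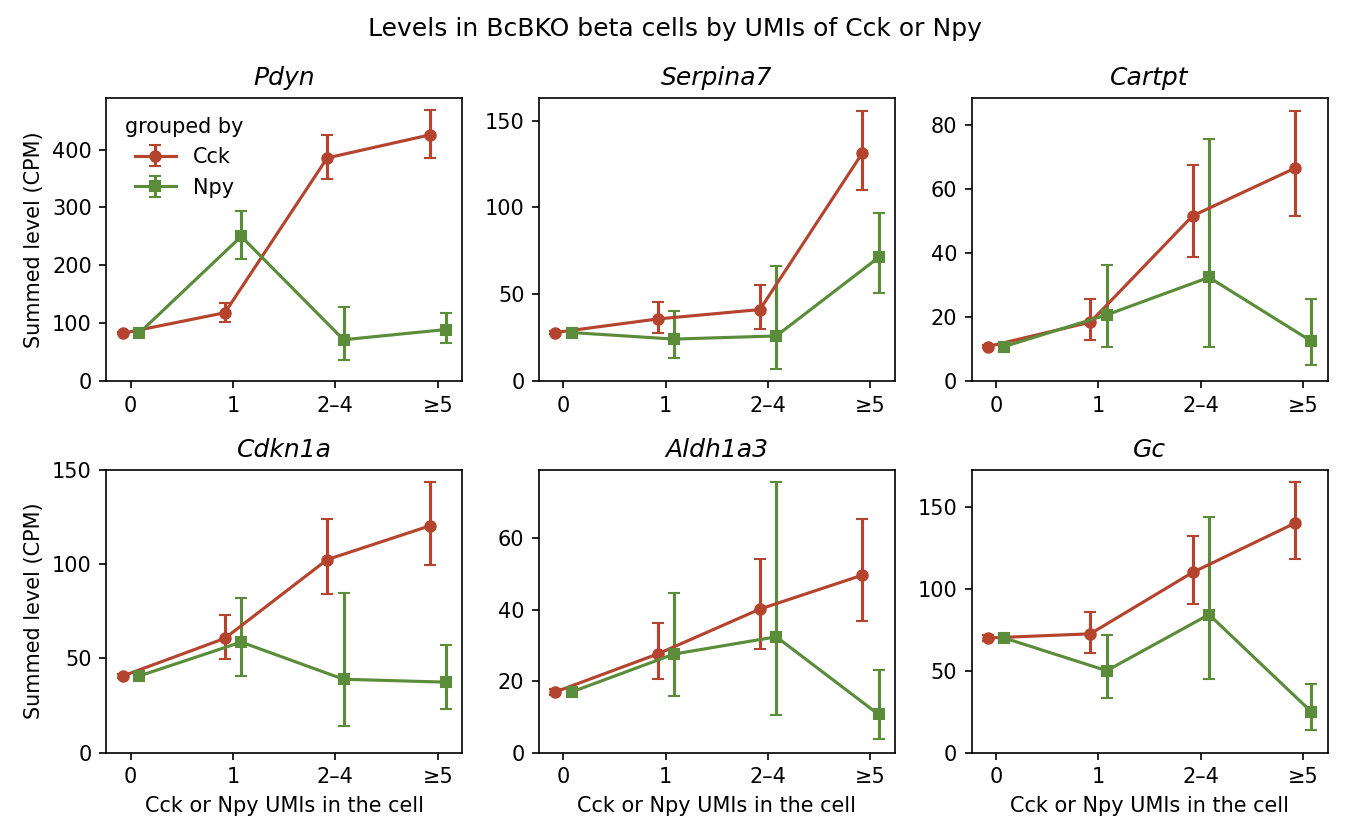
Summed level (y axis, CPM) of 6 genes in BcBKO-labelled beta cells with 0, 1, 2 to 4, and 5 or more UMIs (x axis) of Cck (red circles) or of Npy (green squares); bars are 95% Poisson intervals, which do not cover differences between cells. With Cck, Pdyn goes through 82.4, 118, 386 and 425 CPM, and with Npy through 82.4, 250, 71.3 and 89.0 CPM.

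Flox/flox had 4 cells with 5 or more Cck UMIs. In them Pdyn stood at 267 CPM, Cartpt at 35.9 CPM, Serpina7 at 66.7 CPM, Cdkn1a at 282 CPM, Aldh1a3 at 56.4 CPM and Gc at 267 CPM, against 36.8, 2.68, 14.6, 34.9, 13.2 and 58.7 CPM in flox/flox cells with neither gene. These 6 values were higher in the cells with Cck, from 52, 7, 13, 55, 11 and 52 UMIs. Single cells held 34 of the Pdyn, 11 of the Serpina7, 50 of the Cdkn1a, 7 of the Aldh1a3 and 37 of the Gc UMIs. The 8 flox/flox cells with 1 Cck UMI had Pdyn at 23.2 CPM, Cdkn1a at 36.1 CPM, Aldh1a3 at 12.9 CPM, Gc at 74.8 CPM and Cartpt at 0 UMIs.

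Single strong cells differed among themselves. The BcBKO-labelled cell with 49 Cck UMIs had 21 Cartpt UMIs, 93 Chgb UMIs, 552 Gcg UMIs and 6 Pdyn UMIs. The cells with most Pdyn among the strong Cck cells had 101 and 97 Pdyn UMIs beside 6 and 12 of Cck. The BcBKO-labelled cell with 161 Npy UMIs had insulin genes at 65.2%, 6 Pdyn UMIs, 2 Cdkn1a UMIs and 0 Serpina7 UMIs. A few cells had little Ins1 for their Ins2: the flox/flox cell with 12 Cck UMIs had 348 and 23391 UMIs of them, with 50 Cdkn1a, 11 Serpina7 and 246 Chgb UMIs, and a BcBKO-labelled cell with 9 Cck UMIs had 1295 and 10130, with 63 Serpina7 and 107 Chgb UMIs.

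The same cells can be counted from the companion genes, which restates the association above and adds no support to it, since these genes were named for their level in cells with Cck or Npy. Among the 10% of BcBKO-labelled beta cells with the most Pdyn per UMI, 25 of 306 held Cck (8.17%, 5.36% to 11.8%), against 60 of 2752 of the rest (2.18%, 1.67% to 2.80%). The median depths were 37577.5 and 32743.5 UMIs. The corresponding shares were 8.82% and 2.11% by Cartpt, 7.19% and 2.29% by Serpina7, and also 7.19% and 2.29% by Cdkn1a, where the top 10% was the shallower set at 31386 against 33321.5 UMIs. For Npy the shares by Pdyn were 1.63% and 0.908%, with intervals that overlap (0.533% to 3.77% and 0.589% to 1.34%). By Serpina7 the Npy shares were 0.654% and 1.02%. In flox/flox Cck was in 3 of 275 and 11 of 2475 cells by Pdyn (1.09% and 0.444%), in 0.727% and 0.485% by Cdkn1a, in 0.364% and 0.525% by Serpina7, and in 1.48% of the 203 cells with any Cartpt and 0.432% of the rest. Most BcBKO-labelled cells with the highest Pdyn still held no Cck UMI.

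Genes of immature and dedifferentiated beta cells stood mostly above the remaining beta cells. Of 31 such genes 12 reached the minimum level, and 8 were above and 0 below the remaining beta cells in both libraries, with median log2 ratios of 0.30 in the BcBKO-labelled library and 0.41 in flox/flox. Over all 7617 genes the medians were -0.01 and 0.04, with 27.1% above in both and 24.9% below in both. The list holds Aldh1a3, Serpina7 and Gc, and also Hes1, a target of Notch signalling, at 14.4 against 8.06 CPM and 10.5 against 7.57 CPM, and Cd24a, a surface protein of immature cells, at 19.6 against 11.6 CPM and 11.3 against 8.60 CPM. The flox/flox log2 ratio of Cd24a, 0.35, was -0.45 without 1 cell. The flox/flox intervals of Hes1 (-0.40 to 1.23) and Cd24a (-0.45 to 1.12) reached below 0. Another cell class held Hes1 at 74.2 and 97.8 times the beta-cell level in the BcBKO-labelled and flox/flox libraries, and Cd24a at 82.9 and 121 times. The part of other cells in these 2 genes was not tested. The lowest by the mean of both libraries was Rbp4, also a delta-cell marker, at 30.4 against 21.5 CPM in the library labelled BcBKO and, from 2 UMIs, below the remaining beta cells in flox/flox.

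Of 46 genes of other peptide hormones and granule peptides 11 reached the minimum, with 9 above and 1 below in both libraries (medians 0.18 and 0.17). Beside Cartpt, Vgf, Ucn3 and Iapp these included Scg2, secretogranin II, at 3479.9 against 2695 CPM and 2679.7 against 2595 CPM, and Chgb at 517 against 450 CPM and 534 against 358 CPM, the last with 246 of 712 UMIs in 1 cell. Chga was below in both, at 2558 against 2571 CPM and 2556 against 2698 CPM. Of 16 genes of peptide processing 11 reached the minimum, 4 above and 2 below in both (medians 0.05 and -0.00). Tpst2, a sulfotransferase that modifies tyrosines of secreted peptides, cholecystokinin among them, was the highest at 21.4 against 20.7 CPM and 27.8 against 19.7 CPM. Furin, a convertase of the constitutive pathway, was the lowest at 7.51 against 8.70 CPM and 6.75 against 8.28 CPM.

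All 38 oxidative phosphorylation genes of the nucleus reached the minimum. In both libraries 27 stood above (71.1%) and 3 below (7.89%), with medians of 0.16 and 0.10. Over all 7617 genes 27.1% were above and 24.9% below. Cycs, cytochrome c, was the highest at 86.0 against 69.8 CPM and 81.8 against 57.6 CPM. Of 19 immediate-early and dissociation genes at the minimum (of 20), 3 were above and 10 below in both (medians -0.05 and -0.09). Ier3 was the highest at 13.7 against 9.74 CPM and 7.50 against 7.03 CPM. The lowest by the mean of both libraries, the stress-induced factor Atf3, was on opposite sides, at 41.2 against 28.4 CPM and 12.01 against 33.3 CPM.

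The remaining lists had medians between -0.20 and 0.19 in the library labelled BcBKO. Their counts are to be read beside the 27.1% of all 7617 genes above and 24.9% below in both libraries. Stress-response genes of the endoplasmic reticulum were 13 above and 4 below of 26 at the minimum (medians 0.02 and 0.15), glycolysis and TCA cycle genes 10 above and 3 below of 25 (0.09 and 0.04), and granule and exocytosis genes 2 above and 7 below of 22 (-0.01 and -0.06). Of 24 cAMP and CREB response genes at the minimum, 5 were above (20.8%) and 7 below (29.2%), near the shares over all genes (medians -0.01 and -0.01). Pde10a, a phosphodiesterase that degrades cAMP, was the highest at 34.8 against 29.6 CPM and 27.8 against 19.9 CPM, and Gipr, the receptor of the incretin GIP, was the lowest at 19.4 against 27.2 CPM and 31.5 against 30.5 CPM. Of 5 cell-cycle genes at the minimum (of 21), 2 were above in both and 5 above in flox/flox (medians -0.14 in the library labelled BcBKO and 1.02 in flox/flox). The 2 were Cdkn1a, which arrests the cycle, and H2afz, a histone variant, at 243 against 231 CPM and 387 against 215 CPM, where 243 of 516 flox/flox UMIs came from 1 cell. Hmgb2, a chromatin protein of dividing cells, had 67 of its 79 flox/flox UMIs in 1 cell.

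Antioxidant and metallothionein genes were 7 above and 6 below of 17 (medians 0.09 and -0.00), with Mt3 the highest at 21.7 against 10.4 CPM and 7.50 against 6.76 CPM and Mt2 the lowest at 72.0 against 94.9 CPM and 93.1 against 158 CPM. Interferon and antigen-presentation genes were 5 above and 1 below of 11 (0.19 and 0.08), ion channel and calcium genes 2 above and 7 below of 21 (-0.08 and 0.01), genes of the response to pregnancy and lactogens 3 above and 6 below of 12 (-0.06 and -0.12), and GABA genes 1 above and 2 below of 7 (-0.20 and 0.09). Ifitm3, an interferon-induced membrane protein, stood at 11.7 against 9.61 CPM, and Psmb9, an immunoproteasome subunit, at 3.66 against 5.72 CPM in the library labelled BcBKO.

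None of the 9 receptor genes for cholecystokinin, neuropeptide Y and dynorphin reached the minimum. Npy1r had 2 UMIs in the BcBKO-labelled cells with Cck or Npy and 0 in those of flox/flox, and 11 and 24 UMIs in the cells with neither gene. Cckar had 0 UMIs in both sets with Cck or Npy and 3 and 2 in the cells with neither. Oprm1 had 0 and 0, and 3 and 1. Cckbr, Npy2r, Npy4r, Npy5r, Oprk1 and Oprd1 had 0 UMIs in all beta cells, which says only that they were not detected at this depth. The Y-linked Ddx3y, at 32.0 CPM in the BcBKO-labelled cells with Cck or Npy and 28.5 CPM in those of flox/flox, was found in both libraries, and Xist had 0 UMIs in both of these sets.

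Between libraries, the Cck or Npy cells of the library labelled BcBKO differed from those of flox/flox past 2-fold for 25 higher and 25 lower of 3195 genes at 20 CPM or more (0.782% each), where 4 (0.125%) and 3 (0.0939%) of the same genes were past 2-fold in the remaining beta cells. The flox/flox side rests on 24 cells, of which 16 have a single UMI. Among the highest were genes that other classes hold at over 5 times the beta-cell level: Gpx3 with a log2 ratio of 4.52, Rbp4 with 3.65, Sst with 3.51 and C1qa with 1.54. With such genes set aside, the highest were the companion genes Cartpt, with a log2 ratio of 2.50 (1.64 to 4.05), and Pdyn, with 1.99 (1.68 to 2.35). Next came Tmed6 with 1.58 and the companion gene Serpina7 with 1.51 (0.98 to 2.20). Cartpt, Pdyn and Serpina7 were also higher in BcBKO-labelled than in flox/flox beta cells without Cck or Npy, by 1.68, 1.14 and 0.89 on the log2 scale. Tmed6, a cargo receptor of the early secretory pathway, differed by 1.58 against 0.70 in the remaining beta cells, Mt3 by 1.42 against 0.56, Gpx2, a glutathione peroxidase, by 1.31 against 0.55, and Dapl1 by 1.15 against 0.66. Mtch2, a protein of the outer mitochondrial membrane, differed by 1.06 against 0.17.

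The lowest included genes that were also lower in the remaining BcBKO-labelled beta cells. Rgs2, a regulator of G-protein signalling, stood at 140 CPM in the BcBKO-labelled cells with Cck or Npy and 372 CPM in those of flox/flox (log2 ratio -1.40, and -1.09 in the remaining beta cells), and the metallothionein Mt1 at 485 and 960 CPM (-0.98 and -0.84). For Hdgfrp3 (-1.42 against 0.06), the nuclear lamina gene Tmpo (-1.03 against 0.05), C2cd4a (-1.07 against 0.29) and the transferrin receptor gene Tfrc (-0.99 against -0.05) the ratio in the remaining beta cells was near 0 or above it, and the flox/flox cells with Cck or Npy had 29 to 59 UMIs each. Mum1l1 (-0.97 against -0.44) and Rasd1 (-0.96 against -0.24) completed the 8. Whether these ratios differ between the cells with and without Cck or Npy was not tested.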

How the data were processed

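The deposited counts are whole UMIs per gene and barcode, not normalised, for 28692 genes. The submitters' processing notes name Cell Ranger 3.1.0, Seurat 4.0.0 and mm10, and the matrix header names cellranger 6.1.2; which made the counts was not settled, and the gene annotation is not given in the sources used here. Barcodes with 500 genes, 1000 UMIs and at most 20% mitochondrial UMIs were kept (8504 of 10775 in the library labelled BcBKO, 7568 of 9438 in flox/flox; 178647270 and 167670996 UMIs deposited). Beta cells had 116428063 and 120173034 UMIs, of which the cells with Cck or Npy had 5195542 and 1332598.

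UMIs were summed over each set of cells and divided by their total (CPM). log2 ratios use a pseudocount of 1 CPM, which understates differences of low genes. Genes needed 5 CPM in either set of each library, or 20 CPM between libraries. Intervals are exact Poisson for CPM, exact conditional for ratios and Clopper-Pearson for shares; the limit for 0 is 3 counts. Endothelial-, mural- and macrophage-type barcodes had at least 3 markers of their list. Doublets were called with Scrublet in scanpy 1.11.5 at an assumed 8% and kept: 7 of 115 and 2 of 24 cells with Cck or Npy (6.09% and 8.33%), against 2.82% and 3.23% of the remaining beta cells. Other tools were Python 3.11.15, numpy 2.4.6, scipy 1.17.1 and edgeR 4.0.16 (TMM factors) in R 4.3.3. The ratio code was tested on simulated data.

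Named genes are the 12 highest and 12 lowest by the smaller absolute log2 ratio of genes with the same sign in both libraries, the 8 highest and lowest between libraries, the highest and lowest of each list and all receptors; mitochondrial, ribosomal, sex-linked, acinar and other hormone genes, unnamed models and genes over 5 times higher in another class were not eligible by size. The cells, genes and lists were chosen with earlier results of these data known. Genes outside this rule (the hemoglobins, complement and immunoglobulin genes, and Ucn3, Nkx6-1, Pdx1, Slc2a2, Ins1, Ins2, Iapp, Gc, Hes1, Cd24a, Scg2, Chgb, H2afz, Hmgb2, Rgs5, Gast, Gpx3, Ccl4, Sst, Pgf and Wdr73) were named after their values were seen. Of the highest and lowest list members, 2 are not reported here. Gene positions are from GENCODE M21.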

Additional observations from a re-analysis of the deposited data

Results flagged for a closer look

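For 3 genes the cells with Cck or Npy stood past 2-fold above the remaining beta cells in the library labelled BcBKO and past 2-fold below them in flox/flox. The difference between libraries was not tested. Gpx3, a secreted glutathione peroxidase, had log2 ratios of 1.56 and -2.10; it had 293 BcBKO-labelled UMIs, 77 of them in 1 cell, and 2 flox/flox UMIs. Ccl4, a chemokine of macrophages, had 1.02 and -1.39, with 48 of 74 BcBKO-labelled UMIs in 1 cell and 2 flox/flox UMIs. Sst had 1.16 and -1.15; 8 of the 115 BcBKO-labelled cells held 2584 of its 2936 UMIs, and the 24 flox/flox cells had 65.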

How the results depend on the processing

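No paired analysis was possible because each group is 1 library and no result comes from a test. The shares stayed within their intervals with 20000 UMIs, insulin genes at 35%, 10% mitochondrial UMIs or Scrublet doublets left out, and the library labelled BcBKO had the larger share under every setting run. They moved to 1.99% and 0.291% (difference 1.70 points) with 2 UMIs required, 1.96% and 0.291% (1.67) with thinning, 2.78% and 0.509% for Cck alone, 0.981% and 0.364% (0.617) for Npy alone, and 1.14% and 0.182% (0.963) with 5 UMIs. The counts of genes past 2-fold in both libraries, 0 higher and 4 lower, became 16 and 12 with 2 UMIs, 18 and 41 with 5 UMIs, 2 and 9 with thinning, and 6 and 13 when hormone and mitochondrial UMIs were taken out of the totals; 4 were higher for Cck alone, 20 lower for Npy alone, 1 lower with depth weighting, 1 lower at 20 CPM, 2 higher with no minimum and 1 higher without cells with markers of other types. At 1.5-fold they were 14 and 11. The cause of these changes was not tested; the settings with more UMIs leave fewer cells. Cdkn1a in flox/flox, past 2-fold at first, had a log2 ratio of -0.00595 for Npy alone and -0.51 with thinning. It was -0.015 without the UMIs of its top cell, whose other UMIs stayed in the total, so its sign there is not settled. Of 2176 log2 ratios of 68 named genes under other settings, 2033 kept their sign, as did 513 of 608 list medians. In the library labelled BcBKO, Pdyn, Serpina7, Cartpt, Cdkn1a and Aldh1a3 stayed above 0 in all 16 settings; in flox/flox Aldh1a3 did, and Pdyn ranged from -0.77 to 2.49. With the 5 CPM minimum applied to all beta cells of a library together, 7384 genes remained, the counts past 2-fold were again 0 and 4, and the immature-gene list was again 8 above and 0 below of 12. Settings with 5 UMIs, this minimum, 1.5-fold, without top cells or without cells with markers of other types were chosen after seeing the data.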
